A study of Homo sapiens with 12 samples.

Results

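Inflammasome and gasdermin genes were followed across 12 precision run-on sequencing (PRO-seq) libraries of a human pancreatic carcinoma line, Mia PaCa-2. The 10 genes were chosen by symbol as sensors (NLRP1, NLRP3), the adaptor PYCARD, caspases (CASP1, CASP4), gasdermins (GSDMD, GSDME, GSDMA) and cytokines (IL18, IL1B), by a rule that uses no measured value, although the set was proposed with earlier results of these data known. All 10 had a row in every table, out of 28278 symbols in 8 raw count tables and 25056 symbols in 4 tables of scaled values. PRO-seq maps RNA polymerases engaged in transcription, so each value is a measure of polymerase over a gene and not of RNA or protein.

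The study used 3 stable Mia PaCa-2 lines that carried MED30, MYC-3xHA or both in a doxycycline (Dox)-inducible Tet-on vector. MED30 is a subunit of Mediator, the complex that links transcription factors to RNA polymerase II, and MYC is a transcription factor. Control groups received no Dox and the overexpression (OE) groups 0.5 μg/ml Dox for 1 day, with 2 libraries in each of the 6 groups. All groups shared the parental cell line and an integrated vector, no wild-type cells were included, and each control differed from its OE group by Dox. Nothing said that replicates came from separate cultures, so the p-values measure the spread between these libraries, which may be technical. In bulk libraries, fewer cells that transcribe a gene and less transcription per cell cannot be told apart.

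Inflammasomes are cytosolic complexes that turn signs of infection or damage into an inflammatory form of cell death called pyroptosis. A sensor such as NLRP1 or NLRP3 engages the adaptor PYCARD (also called ASC), which brings in the protease CASP1, and CASP1 matures the precursors of IL1B and IL18 and cleaves the pore-forming protein GSDMD. CASP4 acts in a parallel route: it binds cytosolic lipopolysaccharide and cleaves GSDMD itself. GSDME is a further pore-forming gasdermin, and GSDMA is a gasdermin best known from skin. Epithelial cells are known for NLRP1, CASP4 and IL18, whereas NLRP3, CASP1 and IL1B are typical of myeloid cells.

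The labels and the data differed in points that bear on every gene below. In the libraries labelled MYC, the level of MED30 in TMM-scaled CPM (counts scaled to a common library size) was 32.1 to 32.9 without Dox and 620.3 to 814.8 with Dox, a log2 change of 4.46. The level of MYC was 386.7 to 398.2 CPM without Dox and 261.3 to 268.8 CPM with Dox in the same libraries, a fall of log2 -0.57. The induced gene of those libraries was therefore MED30 and not the MYC of their label. In MYC&MED30, both rose, MED30 by log2 4.78 and MYC by log2 1.16. Each MED30 table also matched the library labelled MYC of the same group and replicate number: over 12236 to 12592 genes the spread of their ratios was 0.578 to 0.771 of the sampling noise, against 1.39 to 3.71 for the other libraries labelled MYC. The MED30 tables and the libraries labelled MYC were thus counted as 1 set of 4 libraries quantified in 2 ways, and never as separate support.

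Raw totals ran from 20616713 to 29881914 counts, except for 1257499 in MYC&MED30 control 2. In that library 3 counts amounted to 2.21 CPM, against 0.0947 to 0.140 CPM in the other raw libraries. The MED30 tables summed to 6379143 to 6519353 scaled values, and 225 to 267 genes with at least 100 counts in the matching raw library were listed at 0 there. Of 6 carcinoma markers, 5 reached 1 CPM in all groups and 1 (EPCAM) did not. Their summed level was 1482 to 1493 CPM without Dox and 927.9 to 1108 CPM with Dox in the libraries labelled MYC, and 1080 to 1154 CPM against 767.8 to 796.7 CPM in MYC&MED30. VIM made up most of this sum, with group means of 495.1 to 1099 CPM in the raw libraries. VIM, KRT8 and KRT18 were called lower with Dox in both raw comparisons, whereas KRT19, EPCAM and CDH1 did not pass the test. Of 9 leukocyte markers, 3 to 5 were below 1 CPM in a group. PTPRC, LYZ and CD3E had 0 to 46 counts in the raw libraries. CSF1R and CD68 made up most of the summed level, with group means of 28.7 to 62.3 CPM and 31.1 to 44.2 CPM in the raw libraries. CSF1R fell with Dox in the libraries labelled MYC (log2 -0.33, edgeR adjusted p = 0.0231). The summed level of the leukocyte markers was 113.4 to 116.8 CPM without Dox and 99.5 to 101.8 CPM with Dox in the libraries labelled MYC. It was 69.1 to 77.2 CPM against 69.0 to 74.2 CPM in MYC&MED30. The part of these shifts in the results was not tested.

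Sequence upstream of the start was taken from RefSeq (GRCh38.p14) for 6 of the 10 genes, and not for NLRP1, CASP1, GSDMD and IL18. The 250 bases before the start are given for CASP4 and GSDMA, the caspase and the gasdermin whose calls differed between the lines. Capitals mark CACGTG, the E-box that MYC with its partner MAX is known to bind, and CASP4 holds none of the letters searched. The CASP4 stretch lies on the minus strand at chr11:104968575-104968824 and that of GSDMA on the plus strand at chr17:39962754-39963003, both read 5′ to 3′.
CASP4: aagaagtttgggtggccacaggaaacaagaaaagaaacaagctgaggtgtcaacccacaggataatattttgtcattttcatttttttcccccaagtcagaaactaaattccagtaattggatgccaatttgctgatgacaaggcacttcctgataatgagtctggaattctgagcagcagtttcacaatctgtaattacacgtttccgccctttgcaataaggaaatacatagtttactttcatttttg
GSDMA: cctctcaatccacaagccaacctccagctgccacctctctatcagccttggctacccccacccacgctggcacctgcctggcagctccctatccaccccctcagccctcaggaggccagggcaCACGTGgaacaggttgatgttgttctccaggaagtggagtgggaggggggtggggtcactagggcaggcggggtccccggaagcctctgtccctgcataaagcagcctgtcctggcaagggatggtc
The letters searched on both strands, from 250 bases before to 50 after the start, were CACGTG, the core promoter box TATAAA and, by name, the core of an interferon-stimulated response element and an NF-kB element. They were present in 7.43% of 27305 promoters for CACGTG, in 3264 of them for TATAAA, and in 3.65% and 1.92% for the others. Among the 6 genes there were 2 matches: CACGTG in GSDMA, at bases -127 to -122 from the start, and TATAAA in NLRP3, at bases -29 to -24. A match is a description of the letters only.

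With Dox, NLRP1 was transcribed more in the libraries labelled MYC, also as quantified in the MED30 tables, and in MYC&MED30. It was the one gene of the set with calls in both of these sets of libraries. CASP4 rose in the libraries labelled MYC and in the MED30 tables but did not pass the test in MYC&MED30. The level of CASP4 without Dox was higher in MYC&MED30 than in the libraries labelled MYC, and whether this bears on its response was not tested. GSDMA rose in MYC&MED30 from very few counts. PYCARD, GSDME, NLRP3, IL1B, IL18 and GSDMD did not pass the test in any Dox comparison, and CASP1 was at or near 0.

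In the libraries labelled MYC, 2 of the 9 genes tested rose and 0 fell (edgeR quasi-likelihood test, Benjamini-Hochberg over 19318 genes). The share of all genes that rose was 5.32%, that of genes that fell was 7.71%, and 13.0% were called in either direction. At an unadjusted p under 0.05, 2 genes were higher and 1 (GSDMD) was lower. No share of all genes at an unadjusted p is given, so such counts, here and below, have no background to be read against. DESeq2 called the same count, 2 higher and 0 lower, with no adjusted p for 3 genes (NLRP3, IL1B and GSDMA). In MYC&MED30, 2 of 9 rose and 0 fell, against 3.65% and 3.09% of all genes and 6.74% in either direction. At an unadjusted p under 0.05, 2 were higher and 2 lower there, and DESeq2 called 1 higher and 0 lower, with no adjusted p for 3 genes. In the MED30 tables, 2 of 5 rose and 0 fell by limma, against 7.37% and 8.63% of all genes and 16.0% in either direction, with 2 higher and 0 lower both at an unadjusted p under 0.05 and by edgeR. The median log2 change of the genes tested was 0.02, 0.17 and 0.33 in these comparisons, beside 0.01, 0.02 and 0.01 over all genes.

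**Figure D1:**
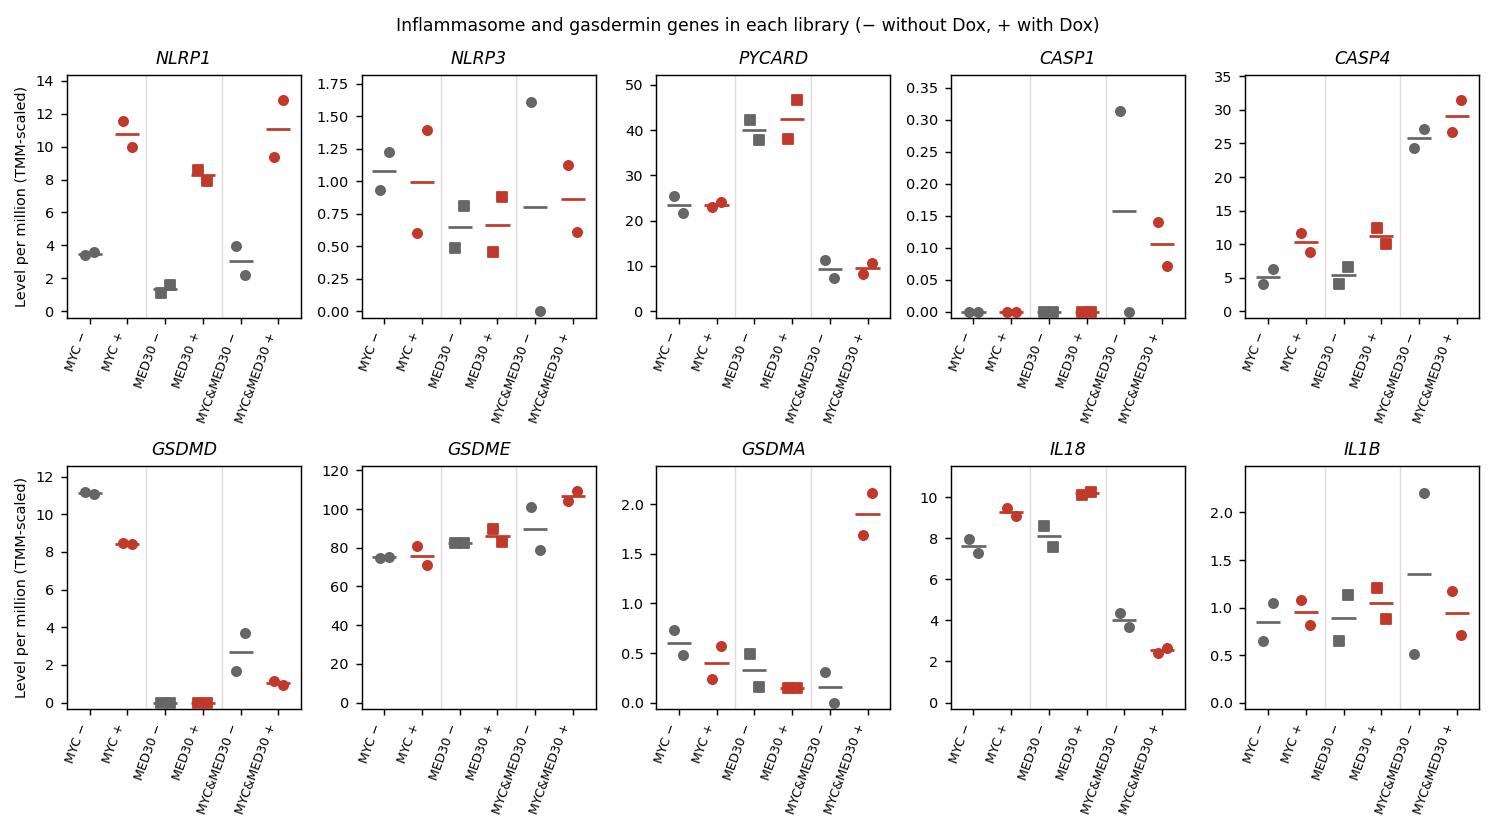
Level of each of the 10 genes in each library (y axis, TMM-scaled CPM, or the same scaling of the MED30 values, linear from 0, a scale of its own per gene) by group (x axis). Points are libraries (squares, MED30 tables), bars are means of 2, grey is without Dox and red with Dox. NLRP1 is higher with Dox in all 3 pairs of groups, of which the MYC and MED30 pairs are the same libraries.

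The sensors differed from each other. NLRP1 (chr17:5501396-5584509, minus strand, GRCh38, 17 exons) encodes a sensor that is cleaved by its own domain and by proteases and is prominent in epithelia. In the libraries labelled MYC it had 84 and 82 counts without Dox and 290 and 316 counts with Dox, or 3.40 and 3.59 CPM against 11.6 and 9.98 CPM. Both Dox libraries lay far above both controls. The log2 change was 1.62 ± 0.20 (SE, n = 2 against 2, edgeR adjusted p = 9.90e-07), a 3.08-fold rise with a 95% interval of 1.21 to 2.03 on the log2 scale. In MYC&MED30 it had 101 and 3 counts without Dox, or 3.96 and 2.21 CPM, and 200 and 358 counts with Dox, or 9.37 and 12.8 CPM. The groups did not overlap, and the log2 change was 1.56 ± 0.24 (SE, n = 2 against 2, edgeR adjusted p = 5.92e-05). Without control 1 of MYC&MED30, which leaves the control with 3 counts, the log2 change was 2.35 and the call was lost (edgeR adjusted p = 0.0992). The difference of both responses was -0.06 with a 95% interval of -0.70 to 0.57 (edgeR adjusted p = 0.963), so the data allow responses that differ by up to that interval in either direction.

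The size of the NLRP1 response depended on how the same reads were counted. The MED30 tables listed NLRP1 at 7 and 10 without Dox and at 57 and 54 with Dox, a log2 change of 2.48 ± 0.22 (SE, n = 2 against 2, limma adjusted p = 0.000256, on log2 of the scaled value plus 1). The ratio of the MED30 table's value to the raw count was 0.0833 and 0.122 in the controls and 0.197 and 0.171 with Dox, whereas the median ratio over genes was 0.243 to 0.290. At the median ratio, the scaled values correspond to 26.1 and 34.5 counts without Dox and to 198.7 and 222.0 with Dox. The raw tables thus held 57.9 and 47.5 further counts in the controls and 91.3 and 94.0 with Dox. In the GENCODE annotation the span of NLRP1 overlaps genes without a symbol on the same strand, whose reads cannot be told apart from those of NLRP1. Whether they account for the further counts was not tested.

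NLRP3 (chr1:247416077-247448817, plus strand), the sensor of potassium efflux and membrane damage, had a low level. It had 23 and 28 counts without Dox and 15 and 44 with Dox in the libraries labelled MYC, where the groups overlapped (log2 -0.08, 95% interval -1.04 to 0.87). In MYC&MED30 it had 41 and 0 counts without Dox and 24 and 17 with Dox (log2 -0.75, 95% interval -1.85 to 0.34). At this depth no difference was detectable, and the intervals still allow changes of NLRP3 as large as their bounds.

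PYCARD (chr16:31201486-31202760, minus strand, 3 exons), the adaptor that links sensors to CASP1, was well covered and did not pass the test. It had 627 and 497 counts without Dox and 575 and 763 with Dox in the libraries labelled MYC, and the groups overlapped at 21.7 to 25.4 CPM and 22.9 to 24.1 CPM. The log2 change was 0.00 with a 95% interval of -0.27 to 0.27. In MYC&MED30 it had 287 and 10 counts without Dox and 178 and 299 with Dox (log2 -0.17, 95% interval -0.52 to 0.18). The MED30 tables listed PYCARD at 260 and 235 without Dox and 252 and 318 with Dox (log2 0.07, 95% interval -0.18 to 0.33). PYCARD passed the test there only when MED30 OE 1 was left out (log2 0.22, limma adjusted p = 0.0176). PYCARD overlaps PYCARD-AS1 on the opposite strand, and the MED30 tables gave it 0.415 to 0.473 of the raw count, above the median ratio.

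The inflammatory caspases lie side by side on chromosome 11. CASP4 (chr11:104942866-104968574, minus strand, 9 exons), the lipopolysaccharide receptor of the non-canonical route, had 99 and 143 counts without Dox and 294 and 281 with Dox in the libraries labelled MYC. These were 4.01 and 6.26 CPM against 11.7 and 8.87 CPM, with no overlap. The log2 change was 1.00 ± 0.18 (SE, n = 2 against 2, edgeR adjusted p = 0.000227), a 2.00-fold rise. The MED30 tables listed CASP4 at 25 and 41 without Dox and at 82 and 68 with Dox (log2 1.08 ± 0.23, SE, limma adjusted p = 0.0148). That call was lost without MED30 control 1 (limma adjusted p = 0.0604) and with no filter on low values (0.123). In MYC&MED30, CASP4 had 621 and 37 counts without Dox and 569 and 879 with Dox, or 24.3 and 27.2 CPM against 26.6 and 31.5 CPM, and the groups overlapped. The log2 change there was 0.23 with a 95% interval of -0.12 to 0.57 (edgeR adjusted p = 0.502).

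CASP1 (chr11:105025443-105036686, minus strand), the effector of the canonical route, had 0 counts in all 4 libraries labelled MYC and was listed at 0 in all 4 MED30 tables. A count of 0 allows up to 0.0947 to 0.131 CPM in those raw libraries. In MYC&MED30 CASP1 had 8 and 0 counts without Dox and 3 and 2 with Dox, below the filter of the test. The 3 decoy genes of the cluster, CARD16, CARD17 and CARD18, whose products bind CASP1, had 0 to 2 counts in every raw library, and so did CASP12. CASP5, the closest relative of CASP4, had 25 and 29 counts without Dox and 30 and 28 with Dox in the libraries labelled MYC. Of the 7 genes whose spans lie within 500 kb of CASP4, 1 was tested, and 0 were called in either raw line. For NLRP1, 16 of 19 neighbours were tested: 1 of them (C1QBP, a mitochondrial protein gene) was lower and 0 higher in the libraries labelled MYC, and 0 were called in MYC&MED30.

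Among the 3 gasdermins of the set, GSDMA alone had a call with Dox. GSDMA (chr17:39963004-39977768, plus strand, 12 exons) had 18 and 11 counts without Dox and 6 and 18 with Dox in the libraries labelled MYC, which overlapped (log2 -0.54, 95% interval -1.64 to 0.56). In MYC&MED30 it had 8 and 0 counts without Dox and 36 and 59 with Dox, with a mean of 1.90 CPM ± 0.30 (SD, n = 2) with Dox. The log2 change was 2.68 ± 0.63 (SE, n = 2 against 2, edgeR adjusted p = 0.00680, 95% interval 1.39 to 3.97). The 0 in the shallow MYC&MED30 control 2 allows up to 2.21 CPM, which is above both Dox libraries, so the low control level of GSDMA rests on the 8 counts of control 1. Without that library the call was lost (edgeR adjusted p = 0.395). DESeq2 gave GSDMA no adjusted p, and the MED30 tables listed it at 3 and 1 without Dox and 1 and 1 with Dox.

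GSDMD (chr8:143553387-143563062, plus strand), the main pore former of pyroptosis, had 277 and 253 counts without Dox and 213 and 266 with Dox in the libraries labelled MYC. In CPM these were 11.2 and 11.1 against 8.49 and 8.40, with both Dox libraries below both controls, but the log2 value of -0.40 did not pass the test (edgeR adjusted p = 0.169). In MYC&MED30 the counts were 43 and 5 without Dox and 24 and 26 with Dox (log2 -0.85, 95% interval -1.55 to -0.15, edgeR adjusted p = 0.145). GSDMD was listed at 0 in all 4 MED30 tables despite those raw counts, so nothing can be read from it there. GSDME (chr7:24698355-24795539, minus strand), a further pore former, was the gene of the set with most counts. It had 1847 and 1723 counts without Dox and 2028 and 2248 with Dox in the libraries labelled MYC (log2 0.02, 95% interval -0.18 to 0.21). In MYC&MED30 it had 2576 and 107 counts without Dox and 2219 and 3050 with Dox (log2 0.17, 95% interval -0.05 to 0.38). The MED30 tables listed GSDME at 508 and 510 without Dox and 595 and 564 with Dox (log2 0.07, 95% interval -0.10 to 0.23).

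The cytokine genes did not pass the test in any Dox comparison. IL18 (chr11:112143260-112164094, minus strand), whose product drives interferon-gamma production, had 197 and 167 counts without Dox and 237 and 288 with Dox in the libraries labelled MYC. Its levels were 7.97 and 7.31 CPM against 9.45 and 9.10 CPM (log2 0.28, 95% interval -0.09 to 0.65). The MED30 tables listed IL18 at 53 and 47 without Dox and 67 and 70 with Dox (log2 0.33, limma adjusted p = 0.160). In MYC&MED30 the levels ran the other way, with 111 and 5 counts without Dox and 52 and 74 with Dox, or 4.35 and 3.68 CPM against 2.44 and 2.65 CPM. The log2 value was -0.74 with a 95% interval of -1.26 to -0.23 (edgeR adjusted p = 0.0720). It passed the test when either Dox library labelled MYC was left out of the shared estimate of spread (edgeR adjusted p = 0.0421 without OE 1 and 0.0357 without OE 2). IL1B (chr2:112829751-112836779, minus strand), the fever cytokine, had 16 and 24 counts without Dox and 27 and 26 with Dox in the libraries labelled MYC, and 13 and 3 against 25 and 20 in MYC&MED30. The 95% intervals of -0.81 to 1.13 and of -0.73 to 1.76 on the log2 scale allow an IL1B response in either direction.

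**Figure D2:**
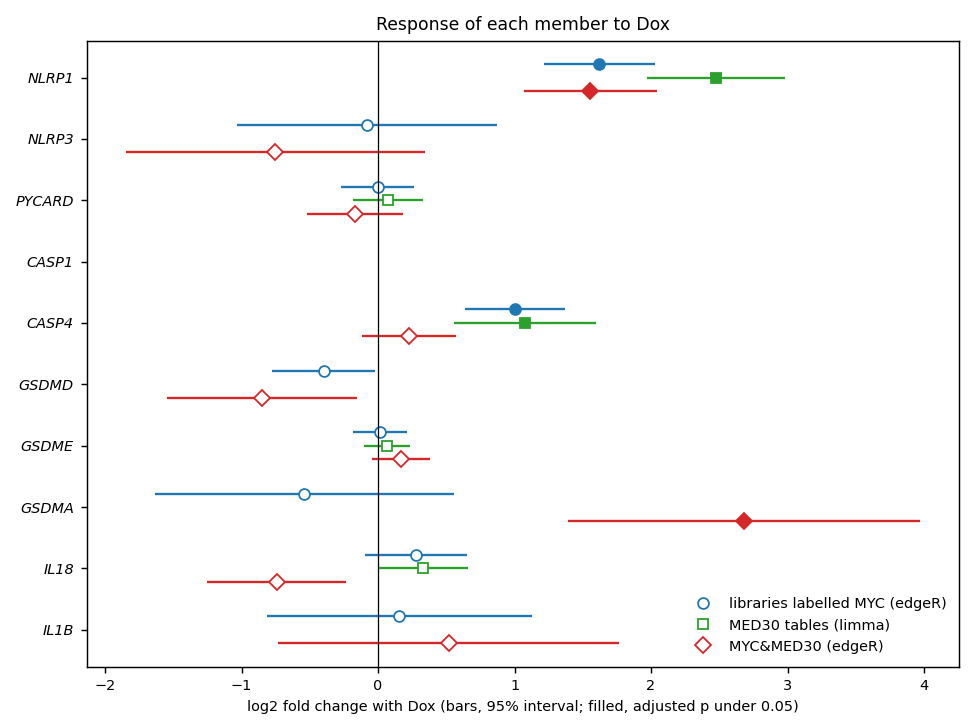
Log2 fold change with Dox (x axis) of each gene (y axis) in the libraries labelled MYC, the MED30 tables and MYC&MED30. Points are the fitted changes, bars the 95% intervals, and filled points passed at an adjusted p under 0.05; genes below the filter have no point. NLRP1 is filled in all 3, though the MED30 tables and the libraries labelled MYC are the same libraries. The GSDMA interval of 1.39 to 3.97 is the widest of the calls.

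The response of MYC&MED30 was set against that of the libraries labelled MYC. These are separate stable lines, and MED30 reached 1504 CPM ± 30.9 (SD, n = 2) with Dox in the former and 717.6 CPM ± 137.5 (SD, n = 2) in the latter. The added MYC, the level of MED30 and the line cannot be told apart in this difference. Of the 9 genes tested, 0 passed, where 1.07% of all genes did (edgeR), 0.714% higher and 0.357% lower. At an unadjusted p under 0.05, 1 was higher (GSDMA) and 2 were lower (CASP4 and IL18), and DESeq2 called 0, with no adjusted p for 6. The difference was -0.78 for CASP4 (95% interval -1.28 to -0.27, edgeR adjusted p = 0.133), 3.22 for GSDMA (95% interval 1.51 to 4.93, edgeR adjusted p = 0.0528) and -1.02 for IL18 (95% interval -1.65 to -0.39, edgeR adjusted p = 0.111). These calls turned on single libraries. CASP4 passed without MYC control 2 or without MYC OE 2 (edgeR adjusted p = 0.0256 and 0.00857), and GSDMA passed without MYC OE 1 or OE 2 (edgeR adjusted p = 0.0446 and 0.0122). With no filter on low counts both passed, at edgeR adjusted p = 0.0407 for CASP4 and 0.0186 for GSDMA. Over their alternatives the adjusted p ran from 0.00857 to 0.752 for CASP4 and from 0.0122 to 0.337 for GSDMA. That CASP4 and GSDMA were called in one line and not in the other is therefore not shown to be a difference between the lines.

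Without Dox, the lines differed in several genes of the set, and this comparison uses the same control libraries as the responses above. Of 9 genes tested, 2 were higher and 3 lower in MYC&MED30 controls than in controls labelled MYC. Since 60.2% of all genes were called here (30.0% higher and 30.2% lower), the count for the set was near the background. Line and library preparation cannot be told apart in this comparison. CASP4 was 4.86-fold higher in MYC&MED30 controls (log2 2.28 ± 0.19, SE, n = 2 against 2, edgeR adjusted p = 2.00e-11), at 24.3 and 27.2 CPM against 4.01 and 6.26 CPM. GSDMD was 6.04-fold lower (log2 -2.59 ± 0.28, SE, n = 2 against 2, edgeR adjusted p = 3.17e-09), at 1.68 and 3.68 CPM against 11.2 and 11.1 CPM. PYCARD was lower by log2 -1.13 (edgeR adjusted p = 1.00e-06), at 11.2 and 7.35 CPM against 25.4 and 21.7 CPM. The CASP4 and GSDMD groups were far apart, and the PYCARD groups did not overlap either.

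IL18 was also lower without Dox in MYC&MED30 (log2 -0.84, edgeR adjusted p = 0.00261), but the call was lost without MYC&MED30 control 1 (edgeR adjusted p = 0.156). GSDME was higher by log2 0.34 (edgeR adjusted p = 0.00703), which fell to 0.06 without that library (edgeR adjusted p = 0.819). The GSDME call was also lost without MYC control 1 or control 2 (edgeR adjusted p = 0.0714 and 0.0579). NLRP1 did not pass the test between the controls (log2 0.12, 95% interval -0.41 to 0.64).

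Levels of different genes were set side by side only per length, as CPM per kb of RefSeq gene span, since the methods say that reads were counted over gene bodies. In controls labelled MYC, PYCARD came first at 17.1 to 19.9 CPM per kb, followed by GSDMD at 1.14 to 1.16 and GSDME at 0.769 to 0.776 CPM per kb. IL18, CASP4 and IL1B followed in that order. NLRP1 (0.0409 to 0.0432 CPM per kb), GSDMA (0.0326 to 0.0493) and NLRP3 (0.0284 to 0.0374) came next, and neighbours among these 3 overlapped. CASP1 was last at 0. In MYC&MED30 controls PYCARD again came first at 5.77 to 8.82 CPM per kb. CASP4 was second at 0.946 to 1.06 CPM per kb and overlapped with GSDME at 0.810 to 1.04 CPM per kb. The levels of GSDMD, IL1B and IL18 overlapped there, as did those of NLRP1, NLRP3, CASP1 and GSDMA. With exon length in place of span, GSDME came first in both lines, and 4 and 5 of the 10 genes kept their place. The GSDME span of 97.2 kb also runs past a nearer start, whose upstream stretch lies at chr7:24757465-24757714. The place of GSDME by span thus depends on the start taken.

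**Figure D3:**
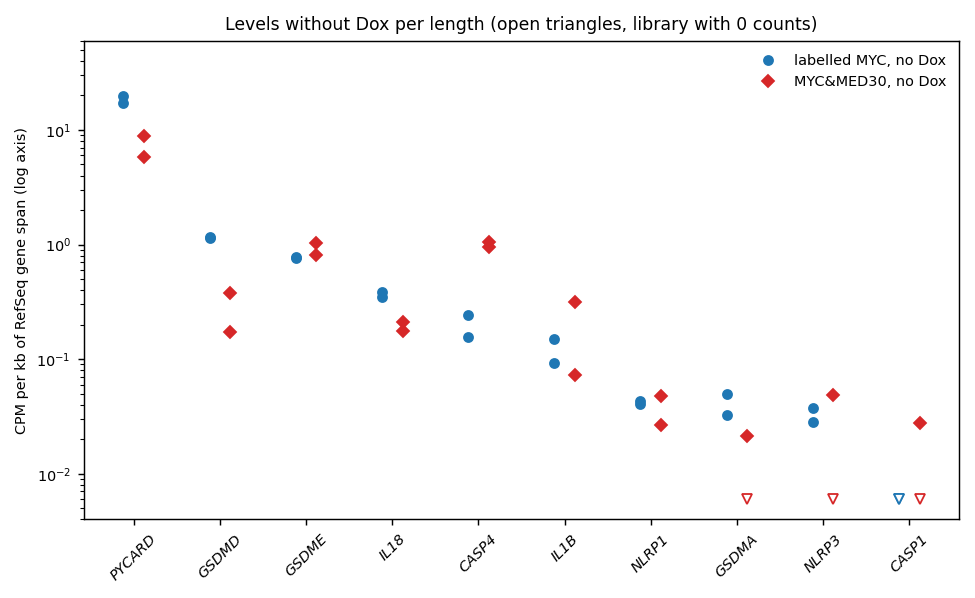
Level without Dox per length (y axis, CPM per kb of RefSeq gene span, log axis) of the 10 genes (x axis), ordered by their mean in controls labelled MYC. Each point is 1 library, and open triangles mark libraries with 0 counts (for CASP1, both controls labelled MYC); CASP4 is higher and GSDMD lower in MYC&MED30 than in the controls labelled MYC.

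The other genes of the pathway were described from 6 lists of 71 genes in all. In the libraries labelled MYC, 5 of the 54 tested rose and 2 fell, beside 5.32% and 7.71% of all genes. In MYC&MED30, 2 of 54 rose and 1 fell, beside 3.65% and 3.09%. Of 38 genes tested in the MED30 quantification, 6 rose and 2 fell, beside 7.37% and 8.63%. At an unadjusted p under 0.05, 12 of the 54 were higher and 3 lower in the libraries labelled MYC. In MYC&MED30, 5 were higher and 6 lower at that threshold. The shares above are of adjusted calls and are no background for these unadjusted counts. The median log2 change of a list ran from -0.11 to 0.18 and from -0.60 to 0.15 in these lines, beside 0.01 and 0.02 over all genes. The counts of single lists below are a few genes each and are to be read beside the same shares. Of 16 other sensors, 15 were tested in the raw tables, of which 3 rose with Dox in the libraries labelled MYC. The count in MYC&MED30 was 2. NLRC5, an NLR protein best known as the transactivator of MHC class I genes, rose with Dox in both raw comparisons and in the MED30 tables. It had 894 and 830 counts without Dox and 2038 and 2516 with Dox in the libraries labelled MYC (log2 1.15 ± 0.09, SE, edgeR adjusted p = 5.65e-10). In MYC&MED30 it had 2363 and 106 counts without Dox and 4054 and 4975 with Dox (log2 1.05 ± 0.10, SE, edgeR adjusted p = 1.58e-08). The MED30 tables gave NLRC5 a log2 change of 1.06.

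NLRP6, a sensor of the intestinal epithelium, rose by log2 0.63 in the libraries labelled MYC and 0.68 in the MED30 tables. Without MYC control 2 or MYC OE 2 its call was lost (edgeR adjusted p = 0.233 and 0.0572). The NLRP6 call in the MED30 tables was lost without MED30 control 2 (limma adjusted p = 0.196) and with no filter (0.109). In the libraries labelled MYC, NLRX1, a mitochondrial NLR protein, rose by log2 0.33 (edgeR adjusted p = 0.0438), a call lost in 10 of 19 alternatives. NOD2, a sensor of bacterial cell wall fragments, rose by log2 1.27 in MYC&MED30, from 91 and 3 counts to 157 and 253 counts. This NOD2 call was lost without MYC&MED30 control 1 or OE 2 (edgeR adjusted p = 0.241 and 0.0579). CARD8, which like NLRP1 carries an autoproteolytic domain, rose by log2 0.32 in the MED30 tables, a call lost without MED30 control 1 or control 2 (limma adjusted p = 0.311 and 0.237).

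Of 22 regulators, 15 were tested in the raw tables, with 1 higher and 1 lower in the libraries labelled MYC, near the 5.32% and 7.71% of all genes. In MYC&MED30, 0 of them were called. SERPINB9, the inhibitor of granzyme B, rose by log2 0.81 in the libraries labelled MYC and 0.53 in the MED30 tables. SERPINB1, an inhibitor of neutrophil proteases, fell by log2 -0.34 and -0.29. After thinning to the smallest library, the SERPINB9 call in the libraries labelled MYC was lost (log2 0.24, edgeR adjusted p = 0.803). Its call in the MED30 tables was lost with no filter (limma adjusted p = 0.0527). DPP9, the protease that holds NLRP1 and CARD8 inactive, rose by log2 0.27 in the MED30 tables. Of 10 other caspases, 7 were tested, and CASP8, the initiator of death receptor signalling, fell by log2 -0.36 in the libraries labelled MYC and -0.32 in the MED30 tables. The SERPINB1 and CASP8 calls were lost when either control labelled MYC was left out (edgeR adjusted p = 0.184 to 0.200 over both genes), and the MED30 table calls of SERPINB1, CASP8 and DPP9 without either MED30 control (limma adjusted p = 0.163 to 0.307).

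Of 5 other gasdermin and membrane rupture genes, GSDMB, a substrate of granzyme A, rose by log2 0.43 in the libraries labelled MYC and 0.43 in the MED30 tables. The GSDMB calls were lost when either control of the comparison was left out (edgeR adjusted p = 0.187 and 0.118, limma adjusted p = 0.301 and 0.223). Of 10 interleukin-1 family ligands and antagonists, 5 were tested and 0 called in either raw comparison. Of 8 receptors, 7 were tested, and IL1R1, the signalling receptor of IL1B, fell by log2 -0.40 in MYC&MED30, a call lost without MYC&MED30 control 1 or OE 1 (edgeR adjusted p = 0.233 and 0.237). In the difference of the responses, 0 of the 54 genes passed by edgeR, where 1.07% of all genes did, so that the 0 is near the background. At an unadjusted p under 0.05, 1 was higher and 3 were lower, and DESeq2 called 0, with no adjusted p for 22.

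**Figure D4:**
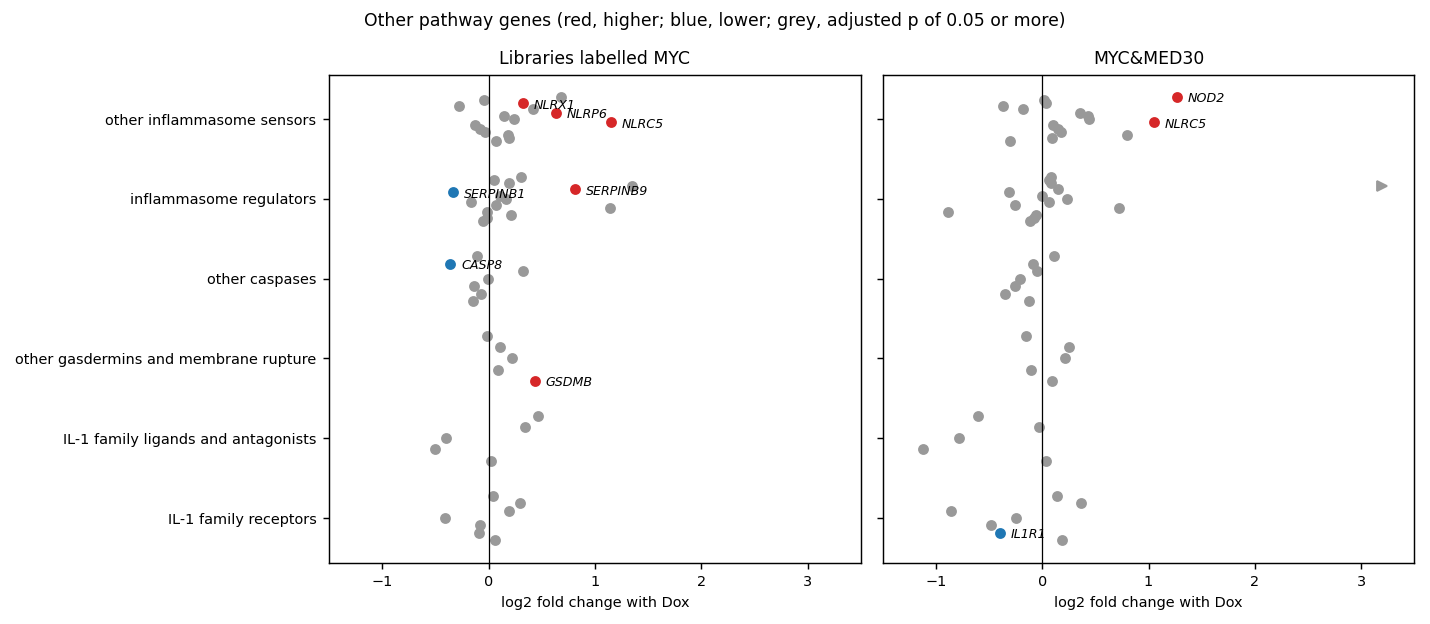
Log2 fold change with Dox (x axis) of the tested genes of 6 lists of other pathway genes (y axis) in the libraries labelled MYC (left) and MYC&MED30 (right). Each point is 1 gene, red if it rose, blue if it fell and grey if it did not pass the test; the arrowhead is TRIM31, at log2 5.86 beyond the axis. NLRC5 is the one red point in both panels.

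Over the 8 raw libraries, the levels most like that of NLRP1 were those of SLC47A1 (Pearson r = 0.992), LOC105370203 (0.992), TWISTNB (0.989), TMTC2 (0.983) and ANKRD65 (0.980), on log2 CPM among 19317 genes. The 8 points share libraries, depth and the split by Dox, so this is a description with no test.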

How the data were processed

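PRO-seq was deposited for 12 libraries. Per the methods, the authors used Trim Galore, Bowtie2 against hg38 and featureCounts (Galaxy version 2.0.3) on the sense strand of gene bodies. Differential expression was computed with DESeq2 (Galaxy version 2.11.40.8). The version of Bowtie2 is not given in the sources used here. For MYC and MYC&MED30, the 8 deposited tables hold raw counts per gene. The 4 deposited MED30 tables hold a score, that is, scaled values rounded to whole numbers, whose scaling is not stated and whose depth is unknown. Groups and replicate numbers came from the labels. The methods give 1 day of Dox and the results text a longer time.

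The test of the counts was edgeR's quasi-likelihood test (edgeR 4.0.16 in R 4.3.3), with TMM scaling, the filter of filterByExpr and all 4 raw groups fitted together. The MED30 values were scaled by TMM, a pseudocount of 1 was added, and log2 was tested with limma 3.58.1 (eBayes, trend) where 2 or more libraries reached 10. P-values were adjusted by Benjamini-Hochberg over all genes tested, with a threshold of 0.05. Standard errors are the log2 change over the root of F. The scripts were tested on simulated data. Replicate numbers did not pair the libraries (correlation of replicate differences between control and OE of -0.15 in the libraries labelled MYC, -0.02 in MYC&MED30 and -0.17 in the MED30 tables).

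The genes and lists were chosen with earlier results of these data known. Named genes were the 10 of the set, MYC, MED30, up to 3 called genes with the smallest p of each list and comparison, and, for a gene called in all 3 Dox comparisons, the 5 with the highest r. The alternatives were other scalings and filters, DESeq2 1.42.0, fits of 4 libraries, thinning to 1257500 counts, a replicate block, exon length and leaving out each library. Some genes that the rule names are not reported here.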

Additional observations from a re-analysis of the deposited data

Results flagged for a closer look

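The level of MYC changed differently with Dox between the lines. It went up where both genes were induced and down in the libraries labelled MYC, and the difference of these responses was 1.72 on the log2 scale (edgeR adjusted p = 3.68e-09). MYC was higher with Dox in 2 of 2 libraries of MYC&MED30 and lower in 2 of 2 libraries labelled MYC. MYC&MED30 carries an inducible MYC-3xHA, whose reads cannot be told apart from those of the cell's own MYC gene. A rise of MYC was therefore part of the design there. The fall in the libraries labelled MYC, by log2 -0.57, enters the same difference. How much of the difference comes from the cell's own gene was not tested.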

How the results depend on the processing

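Of 639 values of the 10 genes under 28 alternatives, 617 stayed on their side of the threshold, 11 lost a call, 11 gained one and 0 of those called changed sign. Alternatives that left a gene untested or gave it no adjusted p are not among the 639 values. A call that ended in this way is therefore not counted as lost. Most of the values belonged to genes that the reported fit did not call. In the libraries labelled MYC, 2 genes of the set were called. Of these, 1 was called with at least 10 counts in every library (3 tested) and 0 after thinning to the smallest library (4 tested). In MYC&MED30, where 2 were called, the count was 0 with at least 10 counts in every library, and 1 after thinning, 1 with DESeq2 on 8 libraries and 1 with DESeq2 on the 4 libraries of the line. In the MED30 tables, where 2 were called, the count was 1 with no filter and 1 with a value of at least 10 in all 4 libraries. In the difference of the responses, where 0 were called, it was 2 with no filter. Between the controls, where 5 were called, it was 3 with at least 10 counts in every library and 2 after thinning. The stricter filter and thinning leave fewer genes and counts to test, and otherwise the cause was not tested. Leaving out 1 library at a time, with the lone library of a group assumed to vary like the other groups, gave 2 in every fit of the libraries labelled MYC, 0 to 3 in MYC&MED30, 1 to 3 in the MED30 tables, 0 to 2 in the difference and 3 to 5 between the controls. With exon length in place of gene span, 4 genes of the order in controls labelled MYC and 5 in MYC&MED30 controls kept their place out of 10. With the replicate number as a block, 2, 2, 2, 0 and 5 genes of the set were called in these 5 comparisons, and the block changed no call of the set. With the numbers crossed, an alternative chosen after seeing the data, 2, 2, 2 and 2 were called in the libraries labelled MYC, MYC&MED30, the MED30 tables and the difference. Over all genes, 2518 calls in the libraries labelled MYC became 770 to 4168, 1302 in MYC&MED30 became 166 to 2410, 2364 in the MED30 quantification became 359 to 6770, 207 in the difference 18 to 876, and 11635 between the controls 5729 to 12482. With library size alone, the median of all genes in the libraries labelled MYC moved by 0.15 on the log2 scale, and 76.7% of the calls were higher there, where the reported fit had 1028 higher of 2518, 73.0% in place of 46.1% in the MED30 tables, 64.1% in place of 54.2% in MYC&MED30 and 43.3% in place of 66.7% in the difference. With DESeq2 on 8 libraries, 39.9% of the calls in MYC&MED30 were higher. The shallow MYC&MED30 control 2 limits every low gene of that line.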

Other observations

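The other genes of the pathway were compared between the lines without Dox. Of 54 tested, 24 were higher and 11 lower in MYC&MED30 controls than in controls labelled MYC, beside 30.0% and 30.2% of all genes. The interferon-inducible DNA sensor AIM2 had 203 and 7 counts in MYC&MED30 controls and 8 and 4 in controls labelled MYC (log2 4.85 ± 0.39, SE, edgeR adjusted p = 1.15e-11). The interferon-inducible GTPase genes GBP2 and GBP1, whose products coat cytosolic bacteria, were higher by log2 5.33 and 5.20, and GBP2 had 212 and 7 counts against 4 and 5. NLRC5 was higher by log2 1.29 and TXNIP, a thioredoxin-binding protein gene, by log2 1.43. NLRP7 was lower by log2 -2.58, a call lost without MYC&MED30 control 1 (edgeR adjusted p = 0.0772).

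Among the other caspases, CASP9, the initiator of the mitochondrial route of apoptosis, was lower by log2 -2.10, while CASP10 was higher by log2 1.16. GSDMB and PJVK, both gasdermin genes, were higher by log2 0.90 and 0.71. Of the interleukin-1 family, IL18BP, the decoy of IL18, was lower by log2 -0.53, and IL1RL2, the receptor of IL36, by log2 -1.97, whereas IL1R1 was higher by log2 1.02. SIGIRR, a negative regulator of these receptors, was also lower (edgeR adjusted p = 4.25e-11). Line and library preparation cannot be told apart here.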
